A study of Sus scrofa with 80 samples.

Results

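The 10 genes chosen as markers of cerebellar neurons (CALB1, CALB2, PVALB, PCP2, PCP4, CBLN1, CBLN3, ITPR1, CA8 and RELN) were looked up by gene name among the 23722 genes of a custom minipig microarray. Of these 10, 8 were present, and PCP4 and RELN are not analysed here because no probe carries either name. Each of the 8 genes was measured by 2 different probes, and none of their spots was saturated or set aside as an outlier. The RNA came from tissues of male and female Göttingen minipigs, a small breed used in drug safety testing, collected to follow tissue expression from shortly after birth to adulthood. Cerebellum, cerebral cortex and hypothalamus were each represented by 9 samples, 1 female and 1 male at 1 week, 4 weeks, 2 months and 4 months and 1 male at 2 years. Kidney, liver, spleen and bone marrow were sampled in the same way, testis in 5 males and ovary in 4 females. The labels name no transgene and no test compound. The 2-year male had been raised elsewhere from 74 days after birth, on other food, and was anaesthetised with another pentobarbital product and dose. All arrays at 2 years lay on 2 slides of their own, so that in this series the age of 2 years, the rearing and the slide cannot be told apart. The labels do not say whether the 3 brain regions of one age and sex came from 1 animal, so p-values measure the spread between these samples.

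In the cerebellar cortex, granule cells send parallel fibres onto the dendrites of Purkinje cells, and Purkinje cells carry the only output of that cortex. Granule cells secrete cerebellins, which join the presynaptic membrane of a parallel fibre to a glutamate receptor of the delta type on the Purkinje cell. Purkinje cells are known for large, fast calcium signals. These draw on a dense store of IP3 receptors and on buffering by calcium-binding proteins such as calbindin and parvalbumin.

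Values are log2 gene values after background correction and quantile normalization, so that a step of 1 is a doubling of signal. Levels of different genes were not compared, because each probe has a brightness of its own. The 27 brain arrays had a median gene spot intensity of 40 to 79 against 18 to 24 in negative control spots. A value was taken as detected above the level that 95% of the negative control spots of its array stayed under, and this detection limit lay between 2.69 and 3.16 on the log2 scale, and 77.2% to 87.2% of genes were above it. The region labels were checked against marker genes. All 6 cerebellar markers matched on the array were higher in cerebellum than in both other regions. Among them was GABRA6, a receptor subunit of granule cells, with 9.58 in cerebellum, 3.05 in cortex and 3.15 in hypothalamus. All 9 measured cortical markers were lower in cerebellum and in hypothalamus than in cortex. Of 12 measured hypothalamic markers only HAP1, at 7.22 in hypothalamus and 5.87 in cortex, was called higher in hypothalamus than in cortex (limma adjusted p under 0.05). POMC averaged 9.94 in cerebellum, 9.65 in cortex and 9.93 in hypothalamus, and OXT 11.07, 11.47 and 11.39. The hypothalamic peptide gene AVP averaged 2.46 there and passed the detection limit in 2 of 9 samples, PMCH averaged 2.61 and passed it in 1, and CRH was higher in cortex, at 8.08, than in hypothalamus, at 5.14. The hypothalamic samples are therefore named by their label alone.

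Both cerebellins marked the cerebellum. CBLN1, the cerebellin that granule cells release onto Purkinje cells, had a lowest value of 13.59, a median of 14.10 and a highest of 14.21 in the 9 cerebellum samples. In cortex it ranged from 5.97 to 8.68 with a median of 7.21, and in hypothalamus from 5.95 to 10.33 with a median of 9.26. All cerebellum samples lay above all 18 samples of the other regions, and the hypothalamic samples were spread widely, with 5.95 in the 4-week male and 6.80 in the 4-month male but 10.33 in the 1-week male. CBLN1 was 104-fold higher in cerebellum than in cortex (log2 difference 6.70 ± 0.48 SE, limma adjusted p 1.37e-10) and 39.1-fold higher than in hypothalamus (5.29 ± 0.48, adjusted p 6.44e-09). It was also 2.66-fold higher in hypothalamus than in cortex (1.41 ± 0.48, adjusted p 0.0295), a call that was lost when the 2-year samples were left out (1.12, adjusted p 0.0977) and on leaving out any of 5 other age and sex combinations.

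Further probes, listed under a transcript accession that the pig RefSeq table assigns to CBLN1, gave differences in the same direction. They were 35.3-fold higher in cerebellum than in cortex and 15.8-fold higher than in hypothalamus.

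CBLN3, a cerebellin that depends on CBLN1 for its secretion, ran from 9.38 to 10.80 in cerebellum with a median of 10.28. Its values of 2.77 to 3.39 in cortex and 2.57 to 3.43 in hypothalamus were at the detection limits, and on no array of those regions was a CBLN3 spot well above background by the scanner software's test. The mean was 10.1 in cerebellum, 3.06 in cortex and 2.81 in hypothalamus. With the dim side set at the lowest signal that could be measured, CBLN3 was at least 113-fold higher in cerebellum than in cortex. Against hypothalamus it was at least 128-fold higher. The fit on the values as measured gave log2 differences of 7.03 (limma adjusted p 4.83e-19) and 7.29 (adjusted p 3.07e-19). The bounds themselves were not tested.

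**Figure D1:**
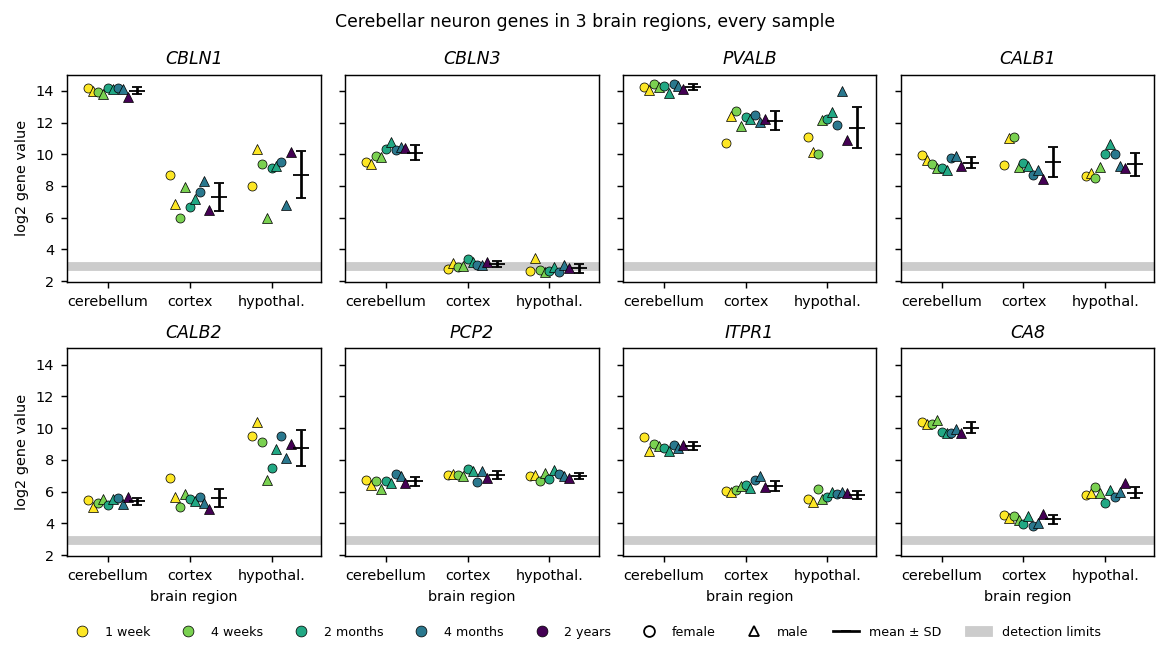
Log2 gene value (y axis) of the 8 cerebellar neuron genes in every sample of cerebellum, cerebral cortex and hypothalamus (x axis), with colour for age, circles for females, triangles for males, a mean with SD at the right of each group of 9 and a grey band for the range of detection limits. For CBLN1, CBLN3, ITPR1 and CA8 every cerebellum point lies above every point of the other regions, while the 3 groups of CALB1 overlap.

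The IP3 receptor and its inhibitor were both highest in cerebellum. ITPR1, the IP3 receptor of the endoplasmic reticulum, ranged from 8.55 to 9.46 in cerebellum (median 8.90), from 5.98 to 6.98 in cortex (median 6.30) and from 5.37 to 6.17 in hypothalamus (median 5.88). The cerebellum samples did not overlap the others. ITPR1 was 5.76-fold higher than in cortex (2.53 ± 0.13, limma adjusted p 4.54e-13) and 8.50-fold higher than in hypothalamus (3.09 ± 0.13, adjusted p 2.63e-14), and 1.47-fold lower in hypothalamus than in cortex (adjusted p 0.00173). Both ITPR1 probes carry a design mark, Xhyb, which 22.4% of all probes have and which the files do not explain.

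CA8, a carbonic anhydrase relative without enzyme activity that binds the IP3 receptor and lowers its affinity for IP3, ranged from 9.68 to 10.53 in cerebellum (median 9.92). It ran from 5.30 to 6.56 in hypothalamus (median 5.94) and from 3.81 to 4.60 in cortex (median 4.33), so that the 3 regions formed 3 separate steps. The step from cortex to cerebellum was 54.2-fold (5.76 ± 0.12, limma adjusted p 5.78e-19), that from hypothalamus to cerebellum 16.9-fold (4.08 ± 0.12, adjusted p 1.82e-16) and that from cortex to hypothalamus 3.20-fold (1.68 ± 0.12, adjusted p 8.51e-10).

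Of the 3 calcium-binding proteins, parvalbumin alone was higher in cerebellum. PVALB, made by Purkinje cells, by molecular layer interneurons and by fast-spiking interneurons of the cortex, ranged from 13.85 to 14.43 in cerebellum (median 14.26). It was 10.71 to 12.75 in cortex (median 12.22) and 9.99 to 14.01 in hypothalamus (median 11.83). The hypothalamic samples covered a wide range, and one of them, the 4-month male at 14.01, lay within the range of cerebellum. PVALB was 4.32-fold higher in cerebellum than in cortex (2.11 ± 0.35, limma adjusted p 2.91e-05) and 5.85-fold higher than in hypothalamus (2.55 ± 0.35, adjusted p 2.59e-06).

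CALB1, the calbindin for which Purkinje cells are best known, did not separate the regions as measured by its probes. Whether these probes report the CALB1 transcript was not tested. Its 9 values ran from 8.99 to 9.96 in cerebellum (median 9.36), from 8.47 to 11.07 in cortex (median 9.28) and from 8.48 to 10.64 in hypothalamus (median 9.22). The highest cortical values were 11.07 in the 4-week female and 11.01 in the 1-week male. The difference between cerebellum and cortex was -0.05 on the log2 scale with a 95% interval from -0.75 to 0.65 (limma adjusted p 0.917), and that between cerebellum and hypothalamus 0.10 with an interval from -0.60 to 0.79 (adjusted p 0.837). These intervals leave room for a difference of up to about 0.8 in either direction.

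CALB2, the calretinin of granule cells and unipolar brush cells, was highest in hypothalamus. It ranged from 6.70 to 10.40 there (median 9.01), against 5.05 to 5.67 in cerebellum (median 5.48) and 4.92 to 6.88 in cortex (median 5.51). All 9 hypothalamic values lay above all cerebellar ones. CALB2 was 10.2-fold lower in cerebellum than in hypothalamus (log2 difference -3.35 ± 0.31, limma adjusted p 7.40e-09) and 8.92-fold higher in hypothalamus than in cortex (adjusted p 7.23e-08). Between cerebellum and cortex the difference was -0.19 with an interval from -0.84 to 0.45 (adjusted p 0.629), and the 2 CALB2 probes differed in sign there, at 0.20 and -0.59.

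PCP2, a modulator of G protein signalling named for its Purkinje cell expression, was slightly lower in cerebellum than elsewhere in the brain. Its values were 6.19 to 7.14 in cerebellum (median 6.64), 6.63 to 7.43 in cortex (median 7.07) and 6.68 to 7.35 in hypothalamus (median 7.00), with overlap between all regions. It was 1.34-fold lower than in cortex (-0.43 ± 0.12, limma adjusted p 0.00476) and 1.27-fold lower than in hypothalamus (-0.35 ± 0.12, adjusted p 0.0189). The second of these calls was lost without the males of 1 week, 4 weeks or 2 months, where adjusted p lay between 0.0523 and 0.0740. The PCP2 probes differed in brightness, at 8.15 and 5.15 in cerebellum, but gave the same difference from cortex, -0.44 and -0.41. Whether they report the PCP2 transcript was not tested.

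**Figure D2:**
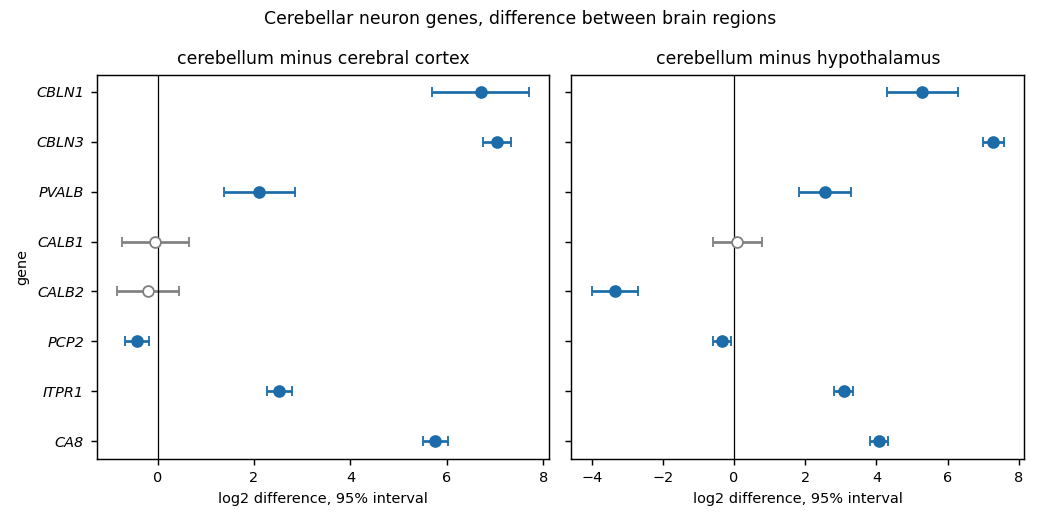
Log2 difference (x axis, with 95% interval) of each gene (y axis) between cerebellum and cerebral cortex on the left and between cerebellum and hypothalamus on the right, filled where the limma adjusted p was under 0.05 and open where it was not. CBLN3 and CBLN1 lie farthest to the right of 0, CALB1 lies at 0 in both panels, and CALB2 lies at -3.35 against hypothalamus.

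In all, 5 of the 8 genes were higher in cerebellum than in cortex, where 27.9% of all genes were called higher, and 1 was lower, where 24.3% were called lower. The median log2 difference of the 8 genes was 2.32 against 0.02 over all genes. Against hypothalamus 5 were higher, with 27.5% of all genes called higher, and 2 were lower, with 24.8% called lower, and the median was 2.82 against 0.03. Both comparisons use the same 9 cerebellum samples. Between hypothalamus and cortex 3 genes were higher in hypothalamus (16.8% of all genes) and 1 lower (14.1%), with a median of -0.11. Without overlap between all 9 cerebellum samples and all 18 others, 4 of the 8 genes were higher in cerebellum (CBLN1, CBLN3, ITPR1 and CA8), a pattern seen in 6.51% of all genes. In such bulk tissue, more cells of a type and more RNA per cell cannot be told apart. On slides with both regions, CBLN1, CBLN3, CA8, ITPR1 and PVALB were higher in cerebellum on 8 of 8, both against cortex and against hypothalamus. PCP2 was lower than in cortex on all 8 but higher than in hypothalamus on 1 of 8. CALB2 was higher than in hypothalamus on 0 of 8. Between hypothalamus and cortex, CA8 and CALB2 were higher in hypothalamus on 8 of 8 slides, CBLN1 on 7 and ITPR1 on 1. Samples on 1 slide were not matched for age and sex, and such runs were not counted over all genes.

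Markers of other cell types were also compared between the regions. Of all genes, 27.9% were called higher and 24.3% lower in cerebellum than in cortex. Against hypothalamus these shares were 27.5% and 24.8%. Of 10 microglial genes, 9 were lower in cerebellum than in cortex and 9 were lower than in hypothalamus, and their summed linear signal was 2140 to 2877 in cerebellum, 4521 to 7827 in cortex and 6451 to 12535 in hypothalamus. P2RY12, a defining marker of microglia, averaged 3.47 in cerebellum, above the detection limits. Of 8 genes of astrocytes and Bergmann glia, 3 were higher and 3 lower in cerebellum than in cortex, with a summed signal of 12617 to 18733 against 8608 to 14210. The oligodendrocyte list had 2 genes higher and 2 lower of 7, and its summed signal of 56321 to 101386 in cerebellum overlapped that of cortex, 75706 to 102769. The vessel and choroid plexus list had 1 higher and 5 lower of 9, with 5149 to 8157 against 7599 to 12094. Genes of dividing cells were higher in cerebellum for 4 of 7 and lower for none, with 154 to 827 against 140 to 322. Of 5 red cell genes, 1 was lower in cerebellum and the summed signal ran from 344 to 36920 there and from 426 to 53463 in cortex. Against hypothalamus, 2 of the 8 glial genes were higher in cerebellum and 5 lower (summed signal 10645 to 25806 in hypothalamus), 2 of the 7 oligodendrocyte genes higher and 3 lower (107232 to 130632), 1 of the 9 vessel and choroid plexus genes higher and 4 lower (7352 to 16255), 4 of the 7 dividing cell genes higher (117 to 298) and 1 of the 5 red cell genes higher and 1 lower (287 to 41443). The part of these cells in the differences above was not tested.

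The wider lists to which the 8 genes belong differed unevenly, and their counts stand against 27.9% of all genes called higher and 24.3% lower than in cortex, and 27.5% and 24.8% for hypothalamus. Of 17 other Purkinje cell genes matched on the array, 14 were higher in cerebellum than in cortex, none was lower and 3 did not pass the test. Their median log2 difference was 1.37. The transcription factor EBF2 was 4.42-fold higher (limma adjusted p 7.32e-07). Against hypothalamus the same 17 genes had 10 higher and 3 lower, with a median of 0.86. Their summed signal was 53556 to 73079 in cerebellum, 37287 to 47798 in cortex and 50150 to 64215 in hypothalamus, so cerebellum and hypothalamus overlapped. Of the 17, 11 were higher and 2 lower in hypothalamus than in cortex, where 16.8% and 14.1% of all genes were.

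Granule cell genes were mostly higher in cerebellum as well. Of 16 measured genes, 14 were higher in cerebellum than in cortex and 2 did not pass, with a median of 3.30. These genes include the 6 cerebellar markers already used to check the region labels. GRIN2C, an NMDA receptor subunit of mature granule cells, was 191-fold higher (limma adjusted p 4.83e-19), GABRA6 92.4-fold and ZIC1, a zinc finger factor of the granule lineage, 68.7-fold. Against hypothalamus 14 were higher and 1 lower.

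The partners of the cerebellins were called in both directions. Of 7 measured genes, 1 was higher and 3 were lower in cerebellum than in cortex, where 27.9% and 24.3% of all genes were, with a median of -0.22 against 0.02 over all genes. NRXN2, a presynaptic neurexin to which cerebellins bind, was 1.56-fold higher. CBLN2, the cerebellin of forebrain neurons, was 44.9-fold lower (4.71 in cerebellum, 10.2 in cortex and 10.6 in hypothalamus; limma adjusted p 3.92e-14), and C1QL1 and GRID1 were 1.66-fold and 1.55-fold lower.

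Among 18 other genes of IP3 signalling and calcium stores, 8 were higher, 5 lower and 5 not called against cortex, with a median of 0.21. INPP5A, which removes IP3, was 3.77-fold higher. The scaffold gene HOMER1 was 4.48-fold lower, the phospholipase gene PLCB1 2.91-fold lower and the IP3 kinase gene ITPKA 2.57-fold lower. Of 17 other calcium-binding protein genes, 12 were lower and 2 higher, with a median of -0.87. The calmodulin-binding NRGN was 14.9-fold lower, HPCAL4 10.7-fold lower and NECAB1 9.66-fold lower, while S100B and NCALD were each 1.37-fold higher.

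Of 11 other carbonic anhydrase genes, 7 were higher and 2 lower, with a median of 0.40. The membrane-bound CA4 was 3.65-fold higher, the catalytically inactive CA10 2.58-fold and CA9 1.77-fold, while CA2, an enzyme of glia, was 5.50-fold lower and CA3 3.60-fold lower. The 54.2-fold step of CA8 exceeded all of these. Of 11 inhibitory neuron genes, 2 were higher and 6 lower. KCNC1, a potassium channel of fast-spiking cells, was 2.92-fold higher, and SLC32A1, the vesicular carrier of GABA, 1.34-fold higher. The cortical interneuron peptides SST and VIP were 69.3-fold and 16.3-fold lower, and KCNC2 was 1.46-fold lower.

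The reelin pathway, to which the unmeasured RELN belongs, had 4 of 10 genes higher and 4 lower, where 27.9% and 24.3% of all genes were, and a median of 0.07 against 0.02 over all genes. The reelin receptor LRP8 was 2.08-fold higher, CRKL 1.87-fold and the adaptor DAB1 1.23-fold. CDK5R1 was 2.58-fold lower, CRK 1.59-fold and CDK5 1.31-fold lower.

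**Figure D3:**
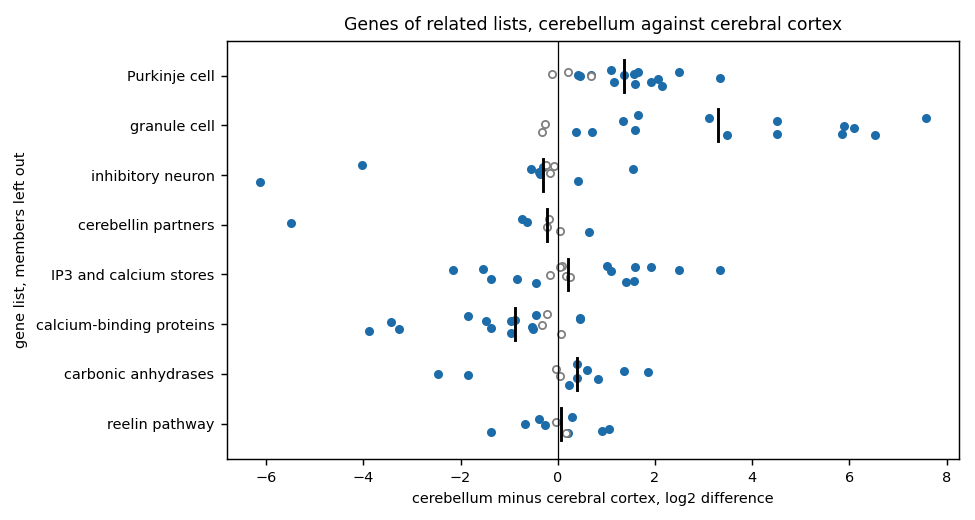
Log2 difference between cerebellum and cerebral cortex (x axis) of every gene of 8 related lists (y axis), the 8 described genes left out, with filled points where the limma adjusted p was under 0.05, open points where it was not and a black bar at the median of each list. The granule cell and Purkinje cell medians lie at 3.30 and 1.37, and that of the calcium-binding proteins at -0.87.

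Change with age in cerebellum was read from 4 samples at 2 and 4 months against 4 at 1 and 4 weeks. CBLN3 rose and CA8 fell, and the other 6 genes did not pass the test. CBLN3 was 9.52 in the female and 9.38 in the male at 1 week, 9.90 and 9.82 at 4 weeks, 10.32 and 10.80 at 2 months and 10.28 and 10.46 at 4 months. The older samples all lay above the younger ones, and the 2-year male, at 10.37, lay within the older range. The rise was 1.75-fold (0.81 ± 0.16, limma adjusted p 0.0360). Of all genes 0.953% were called higher with age, and 6.05% had all older values above all younger ones.

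CA8 was 10.38 in the female and 10.28 in the male at 1 week, 10.27 and 10.53 at 4 weeks, 9.74 and 9.71 at 2 months and 9.69 and 9.92 at 4 months. The older samples all lay below the younger ones, and the 2-year male, at 9.68, was the lowest of the 9. The fall was 1.52-fold (-0.60 ± 0.11, limma adjusted p 0.0319), where 1.32% of all genes were called lower and 6.15% had all older values below all younger ones. For both genes the call was lost when any of 6 of the 8 samples was left out, all but the 4-week female and the 2-month male. Adjusted p under the alternatives ran from 0.00691 to 0.102 for CBLN3 and from 0.0204 to 0.116 for CA8. The 8 cerebellum arrays lay on 8 slides. In 2 pairs scanned on the same day, at 4 months against 4 weeks, CBLN3 differed by 0.39 in females and 0.63 in males and CA8 by -0.59 and -0.61.

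For the 6 other genes the intervals were as follows. CBLN1 averaged 13.98 ± 0.17 (SD, n = 4) in the younger samples and 14.15 ± 0.05 (SD, n = 4) in the older samples, a difference of 0.17 with an interval from -0.09 to 0.42. PVALB differed by -0.04 (interval -0.36 to 0.28), CALB2 by 0.03 (-0.30 to 0.36) and CALB1 by -0.07 (-0.58 to 0.43). PCP2 differed by 0.32 (-0.06 to 0.70) and ITPR1 by -0.25 (-0.64 to 0.15). The smallest limma adjusted p among these 6 genes was 0.333, for PCP2.

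**Figure D4:**
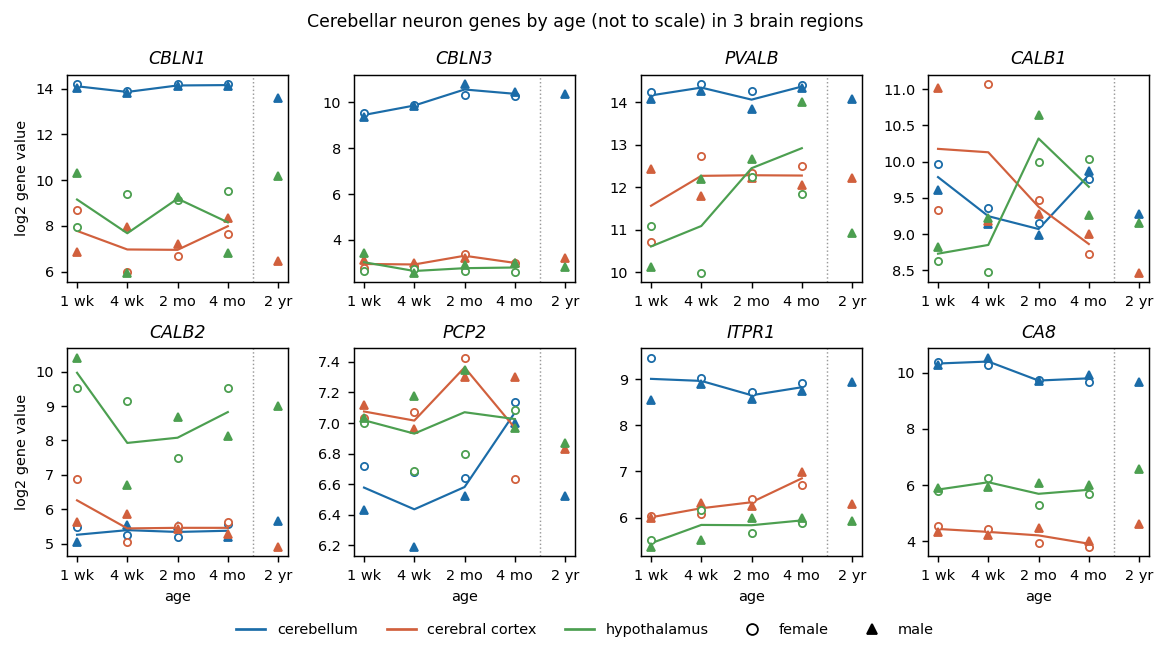
Log2 gene value (y axis) at each age (x axis, not to scale) in cerebellum, cerebral cortex and hypothalamus, with open circles for females, filled triangles for males, lines through the mean of both sexes up to 4 months and a dotted line before the 2-year male. In cerebellum CBLN3 steps up and CA8 steps down after 4 weeks, and the cerebellar lines of CBLN1 and PVALB are nearly flat near 14.

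Summed signals of marker lists of other cell types were also set side by side in cerebellum between these ages. The sums are linear, so the brightest probes of a list weigh most. The summed signal of the dividing cell list was 361 to 827 at 1 and 4 weeks and 201 to 343 at 2 and 4 months, that of the oligodendrocyte list 90209 to 101386 and 65757 to 82236, and that of the vessel and choroid plexus list 7443 to 8157 and 5149 to 6434. The groups did not overlap in these 3 sums, all lower at the older ages. Of all single genes, 6.15% had all older values below all younger ones and 6.05% above. The sums overlapped for astrocytes and Bergmann glia (15080 to 18733 and 13621 to 15711), microglia (2140 to 2672 and 2499 to 2877) and red cell genes (3090 to 36920 and 1650 to 10979). The genes called in these lists were AQP4 and FABP7, 2.02-fold and 1.65-fold lower at the older ages, and CDH5, 1.54-fold lower. None of them belongs to the oligodendrocyte or dividing cell list. The part of these cells in the changes of CBLN3 and CA8 was not tested.

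Genes of 5 of the 8 related lists passed the age test in cerebellum, where 0.953% of all genes were called higher and 1.32% lower. In the granule cell list, GABRA6 rose 1.73-fold (limma adjusted p 0.0382) and ZIC4 fell 1.98-fold (adjusted p 0.0348), and 14 of 16 did not pass. In the Purkinje cell list EBF2 fell 1.57-fold and 16 of 17 did not pass. Of the 17 calcium-binding genes 4 were called: HPCA rose 2.92-fold, CABP1 2.05-fold and NRGN 2.03-fold, and PCP4L1 fell 1.59-fold. ITPKA, 1 of 18 IP3 and calcium store genes, fell 1.66-fold and CA3, 1 of 11 carbonic anhydrase genes, fell 1.97-fold. No gene of the cerebellin partner, reelin or inhibitory neuron lists was called.

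In cortex none of the 8 genes was called with age, where 1.69% of all genes were called. By limma at an unadjusted p under 0.05 there were 2 of the 8, against 4420 of all 23722 genes. These were CALB1 at -1.03 (interval -1.99 to -0.07) and ITPR1 at 0.49 (0.13 to 0.85). CALB1 in cortex was 11.07 and 11.01 in 2 of the 4 younger samples and 9.34 and 9.19 in the others, and 8.72 to 9.48 in the older ones. In hypothalamus none was called, and 0% of all genes were. At an unadjusted p under 0.05 limma gave 2 of the 8, against 2266 of all 23722 genes. These were CALB1 at 1.19 (0.59 to 1.80) and PVALB at 1.84 (0.60 to 3.08).

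The change with age in cerebellum was also set against that in each other region. None of the 8 genes passed this test against cortex or against hypothalamus, and 0.00843% of all genes did in each, which is 2 genes. At an unadjusted p under 0.05 limma gave CBLN3 (0.60, interval 0.16 to 1.03) and ITPR1 (-0.73, -1.26 to -0.20) against cortex. Against hypothalamus it gave CBLN3 (0.86, 0.30 to 1.42), CALB1 (-1.27, -2.08 to -0.46) and PVALB (-1.88, -3.18 to -0.57). Of all 23722 genes, 2110 lay under that unadjusted threshold against cortex and 3250 against hypothalamus. The CBLN3 and CA8 changes were thus not shown to differ from those of the other regions.

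The sexes could be set side by side at 4 ages, with 1 animal of each. In cerebellum the male value was below the female value at all 4 ages for CBLN1, PVALB, PCP2 and ITPR1, which are 4 of the 8 genes, against 9.67% of all genes. The mean differences were -0.12 for CBLN1, -0.22 for PVALB, -0.26 for PCP2 and -0.34 for ITPR1 on the log2 scale. For ITPR1 the largest difference was -0.91, at 1 week. In cortex and hypothalamus none of these genes had such a run. This pattern was chosen after its values were seen, and it was not tested.

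Outside the brain the 5 genes that marked cerebellum were lower, each in its own way. CBLN1 was well above background on only 2 of the other arrays, the highest value being 4.47 in the testis of the 1-week male, and was at least 1691-fold higher in cerebellum than in bone marrow, 1740-fold than in spleen, 1764-fold than in ovary and 1813-fold than in kidney. CBLN3 was at least 95.6-fold higher than in liver, 119-fold than in kidney and 124-fold than in bone marrow, and its highest value outside the brain was 4.03, in the spleen of the 2-year male. CA8 had medians between 3.37 in ovary and 5.85 in testis. ITPR1 was above the detection limit in all samples of every tissue, with medians from 4.24 in testis to 6.74 in spleen.

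PVALB varied most outside the brain. In kidney, where parvalbumin is known from the distal convoluted tubule, it was 11.18 and 11.08 at 1 week, 10.24 and 9.57 at 4 weeks, 6.97 and 8.61 at 2 months, 8.54 and 7.14 at 4 months and 6.01 at 2 years, females first. The kidney values at 1 and 4 weeks all lay above the later ones. In testis, PVALB was 9.44 at 1 week, 9.32 at 4 weeks, and 4.74, 4.19 and 4.23 at 2 months, 4 months and 2 years. In bone marrow it was 10.94 and 10.22 at 1 week and 1.97 to 3.57 in the 7 later samples, which lay around the detection limit. PVALB was at least 1497-fold higher in cerebellum than in liver and at least 2391-fold higher than in spleen. These runs over age were not tested.

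CALB1, CALB2 and PCP2 gave other orders of tissue. CALB1 was bright in all 9 tissues, with medians from 8.40 in ovary to 10.15 in bone marrow, and the range of each tissue overlapped that of the next in the order. The widest spread was in bone marrow, where the females of 4 weeks, 2 months and 4 months had 13.15, 12.74 and 12.49 and no male exceeded 10.21. CALB2 had medians of 3.05 to 3.48 in every tissue outside the brain, all below the lowest cerebellar value of 5.05. PCP2 was highest in bone marrow (6.58 to 10.12, median 9.30) and spleen (7.07 to 9.87, median 8.12), and cerebellum stood seventh of the 9 tissues by median, although neighbouring tissues in that order overlapped. The 2 PCP2 probes disagreed on this order. The brighter probe averaged 12.7 in bone marrow and 11.4 in spleen against 8.15 in cerebellum, while the dimmer one averaged 5.34, 5.21 and 5.15 in these tissues and was highest in cortex, at 5.56.

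**Figure D5:**
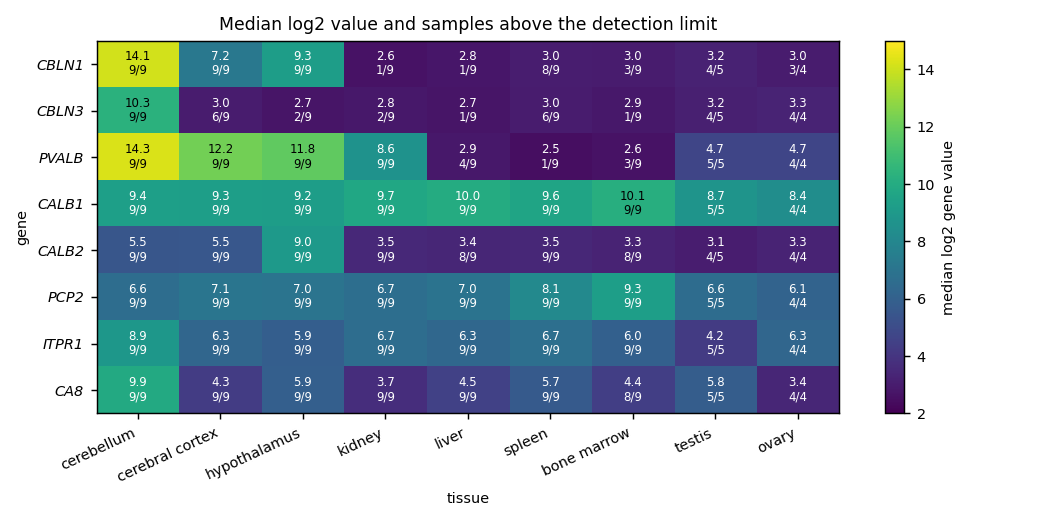
Median log2 gene value (colour and upper number) of each gene (y axis) in the 9 tissues (x axis), with the number of samples above the detection limit of their array out of all samples below it. CBLN1, CBLN3, PVALB, ITPR1 and CA8 have their highest median in cerebellum, CALB2 in hypothalamus and CALB1 and PCP2 in bone marrow, for PCP2 through 1 of its 2 probes.

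Over the 27 brain samples each gene was set against the 12851 genes with a symbol by Pearson's r, as a description, because the samples fall into 3 regions and share their arrays. The genes most like CBLN1 were C7orf16, ZIC2 and ZIC5 (r 0.97, 0.97 and 0.96), of which the first is an older symbol of PPP1R17, a phosphatase inhibitor of Purkinje cells. PPP1R17 was listed as a Purkinje cell and cerebellar marker but was not matched to that older symbol, so the counts of those lists leave it out. Those most like CBLN3 were CRTAM, CEP76 and MYBL2 (all r 0.99), and those most like ITPR1 were ARHGAP10, CEP76 and DUSP5 (r 0.97, 0.97 and 0.96). CA8 was most like ANKS1A, PRUNE2 and GRM4 (r 0.98, 0.98 and 0.97), and GRM4 is a presynaptic glutamate receptor of parallel fibres. PVALB was most like TAB2, TBL1Y and RPS6KB2 (r 0.92, 0.91 and 0.90). CALB2 was most like NTS, SHOX2 and ZFHX3 (r 0.96, 0.95 and 0.94), CALB1 like APOM, GRB2 and TLL2 (r 0.89, 0.87 and 0.86) and PCP2 like ZG16, RHBG and CCDC85B (r 0.92, 0.87 and 0.85).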

How the data were processed

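Cy3-labelled RNA was hybridised to 80 one-colour arrays. The authors deposited, per the file headers, the median pixel intensity of each spot and a background-corrected processed intensity from Agilent Feature Extraction 11.5.1.1, neither normalized between arrays. The authors also deposited a table of normalized log2 values, whose genes were matched to the arrays (r 0.991 to 0.998) and used only as an alternative. The authors designed the probes from transcripts predicted on a minipig genome assembled along the Duroc pig reference, with RefSeq pig mRNAs added. They report that some probes matched sequenced RNA of minipig liver, spleen, heart and kidney imperfectly or not at all, without naming these probes. The RefSeq table used here is of another assembly, so no gene positions are given.

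In limma 3.58.1 under R 4.3.3, flagged spots (10 to 590 per array) were left out, the median intensity was background-corrected (normexp, offset 0) and quantile normalized, and log2 values of spots and then of probes were averaged into 23722 genes. Another 14 genes without an unflagged value were dropped. The 8 technical repeats of the 2-year kidney were averaged, which gave 72 samples. Over those repeats the SD of the 8 described genes was 0.0578 to 0.211, and the number of arrays limits the precision. In these kidney arrays CBLN1 averaged 2.72 and CBLN3 2.82, near the detection limit. Their SD there does not give the precision at their levels in cerebellum. A renal pelvis array was left out.

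Regions were compared over 27 samples with the 9 combinations of age and sex as fixed blocks, and ages over 8 samples per region, by limma with two-sided Benjamini-Hochberg adjustment over all genes at 0.05. A tissue in which no spot of a gene was well above background on any array received a bound. Gene lists hold 212 genes, of which 176 were matched to probes, 22 of these through the pig RefSeq table (assembly Sscrofa11.1). Older symbols of the listed genes were not searched for. The genes named from each list are the 3 with the largest called difference in each direction, some of which are not reported here. The fits were tested on simulated data. The genes and lists were chosen with earlier results of these data known. Alternatives covered the intensity column, offset, normalization, probe summary, filter, variance prior, blocks, slides, ages and left-out samples.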

Additional observations from a re-analysis of the deposited data

Results flagged for a closer look

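In 72 groups of a gene and a tissue, a single sample stood apart from the rest of its group in 5, where chance gives about 5% of groups. In cortex the 1-week female had the highest CALB2, 6.88 against 5.85 in the next sample, and the lowest PVALB, 10.7 against 11.8. CBLN1 was highest in the kidney of the 4-month female, at 3.14 against 2.75, both around the detection limit, and in the testis of the 1-week male, at 4.47 against 3.26. PCP2 was lowest in the bone marrow of the 2-year male, at 6.58 against 8.84 in the next sample.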

How the results depend on the processing

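No called difference of the 8 genes changed sign under any alternative, and the number called between regions stayed within 1.5 times. The calls with age in cerebellum, 2 in the main setting, were less stable. None remained with the processed signal or with the deposited normalized table, 1 remained with the local background and an offset of 50, with an offset of 50 alone, with median scaling and with a linear trend over the ages, and leaving out each sample in turn gave 0 to 2. The comparison of that change with cortex gave 1 call (CA8) with the local background and with an offset of 50 alone, and that with hypothalamus gave 1 (CBLN3) with the local background, where the main setting gave 0. The cause was not tested. Over all values of single genes, left-out samples apart, 698 kept their side of the threshold and their direction. Of the rest, 9 uncalled values changed sign, 9 lost a call and 3 gained one, and these counts include the changes named above. CBLN3 differed between hypothalamus and cortex once the 1-week males were left out (-0.32, limma adjusted p 0.0214).

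Processed signals moved the median of all genes to 0.11 for cerebellum against cortex and to 0.16 against hypothalamus, to which the differences under that scaling are relative. Counts over all genes depended on the setting. With age in cerebellum 539 genes were called, and 325 with processed signals, 242 with the deposited table, 1724 with all regions in one fit, 1698 with slides as a random block, 1905 with a linear trend and 17 to 928 on leaving out a sample. In cortex 402 were called, and 1161 with the local background, 1115 with an offset of 50, 194 with median scaling, 700 with the deposited table, 828 with an intensity trend, 668 after a filter on low values, 183 with sex as a replicate block, 251 with all regions in one fit, 228 with slides, 163 with a linear trend and 9 to 160 on leaving out a sample. In hypothalamus 0 were called, and 3, 2, 162, 143, 68 and 20 with processed signals, the deposited table, all regions, slides, a linear trend and the 2-year sample added. The comparisons of change between regions called 2 genes each, up to 72 against cortex and 104 against hypothalamus, both with the local background. With the block of age and sex, none of the 8 genes was called in those comparisons.

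In the deviations of same-block samples of the 3 regions, the mean correlation of a block was 0.09 to 0.36 and its weakest pair -0.01 to 0.30. The weakest pair was over 0.1 in 6 of the 9 blocks and not in all, so the blocks were not taken to pair animals, and dropping the block changed no call between regions. Slides as a random block had a correlation of 0.07 for regions and 0.04 for ages. Outside the brain 285 values lay above the detection limit, and 250 with the 99th percentile. The planned background correction on the mean signal was replaced, after seeing the data, by one on the median signal. CBLN3 gave no value in hypothalamus with age after the filter on low values. Near the detection limit, as for CBLN3 outside cerebellum, fold changes have no upper limit.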

Other observations

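The renal pelvis of the 2-year male, measured on 1 array and used in no comparison, had CA8 at 6.47, where the 9 kidney samples ranged from 3.07 to 4.28. PVALB was 6.37 there, CALB1 8.56, PCP2 6.40, ITPR1 6.59 and CALB2 3.35. CBLN1, at 2.51, and CBLN3, at 2.80, were below the detection limit of that array, 2.84.

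CA8 was also uneven in liver, with 3.77 to 4.52 at 1 and 4 weeks, 3.93 in the female and 5.96 in the male at 2 months, 5.32 and 6.64 at 4 months and 5.71 at 2 years. In bone marrow the 2 CALB1 probes did not spread alike, with an SD over the 9 samples of 2.53 for one and 0.99 for the other.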
